A study of Mus musculus with 5 samples.

Results

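Mitochondrial ribosomal protein (MRP) genes were taken as every protein-coding mouse gene whose symbol is Mrpl or Mrps followed by a number and an optional letter. The rule gave 78 of the 55487 genes in the count table, 49 Mrpl genes named for the large subunit and 29 Mrps genes named for the small subunit. They were followed in bulk RNA-seq of common lymphoid progenitors (CLPs), the marrow cells that give rise to B, T and natural killer cells, sorted as lineage-negative, CD127-positive and Flt3-positive. The SF1 group, with 3 libraries, carries SclCre and JAK2-V617F, a kinase mutant found in many myeloproliferative neoplasms. The WT group, with 2 libraries, is wild type. SclCre is a recombinase driven by control sequences of the blood stem cell gene Scl, and marrow of both groups was harvested 16 weeks after tamoxifen. The sources used here do not give whether WT mice carried SclCre, the age and sex of the mice, or how many animals a library holds, so p-values measure only the spread between these libraries. The comparison asked how the mutant changes gene expression in CLPs, and a count per gene cannot show the mutant base itself.

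The mitochondrial ribosome sits in the mitochondrial matrix and translates the few proteins encoded by mitochondrial DNA, all of them subunits of the respiratory chain and ATP synthase. Its ribosomal RNAs come from mitochondrial DNA, while all of its proteins are encoded in the nucleus, made in the cytosol and imported. Some have a counterpart in bacterial ribosomes and others exist only in mitochondria. Their genes are expressed in nearly all cells, and the transcription factors NRF1, GABPA (an ETS factor), YY1 and MYC are known regulators of nuclear genes for mitochondria.

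MRP genes lie scattered over the genome and share short promoter letters that the symbol rule did not use. Promoter windows of 300 bases, from 250 before to 50 after the annotated start (RefSeq, GRCm38.p6), were found for 69 of the 78 genes. The ETS letters CCGGAAG stood on either strand in 34.7% of the 75 MRP windows, against 17.5% of windows of the genes tested and 8.86% of all windows. The YY1 letters AAGATGGCG stood in 10.7%, against 2.96% and 1.40%. The NRF1 letters GCATGCGC stood in 10.7%, against 5.12% and 2.71%, and the longer palindrome that puts GC before these letters in 4%, against 2.04% and 0.971%. These shares describe letters in the windows, not binding. The windows below, from 170 bases before to 30 after the start on the gene's own strand, are those of the 4 MRP genes whose expression differed between the groups, followed by Mrpl9 for the NRF1 palindrome and Mrps11 for the YY1 letters. Capitals mark the matched letters on either strand.
Mrps18c, chr5:100798589-100798788, plus strand: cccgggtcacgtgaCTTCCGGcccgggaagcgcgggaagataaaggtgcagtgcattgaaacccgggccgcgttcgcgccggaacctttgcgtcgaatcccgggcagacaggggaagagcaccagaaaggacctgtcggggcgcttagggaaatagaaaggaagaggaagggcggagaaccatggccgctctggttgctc
Mrpl33, chr5:31613781-31613980, plus strand: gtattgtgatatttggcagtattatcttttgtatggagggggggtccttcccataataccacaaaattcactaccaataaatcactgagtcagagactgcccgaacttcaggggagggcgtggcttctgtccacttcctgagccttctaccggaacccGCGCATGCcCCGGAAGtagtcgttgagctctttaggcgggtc
Mrpl58, chr11:115403582-115403781, plus strand: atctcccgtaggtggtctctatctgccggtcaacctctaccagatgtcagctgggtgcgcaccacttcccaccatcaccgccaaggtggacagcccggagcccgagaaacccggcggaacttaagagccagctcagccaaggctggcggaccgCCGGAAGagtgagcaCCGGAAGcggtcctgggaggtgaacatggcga
Mrps5, chr2:127587256-127587455, plus strand: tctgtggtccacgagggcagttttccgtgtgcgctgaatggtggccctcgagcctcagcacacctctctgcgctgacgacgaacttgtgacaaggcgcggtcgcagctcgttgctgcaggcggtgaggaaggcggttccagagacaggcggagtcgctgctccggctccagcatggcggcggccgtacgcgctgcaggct
Mrpl9, chr3:94443166-94443365, plus strand: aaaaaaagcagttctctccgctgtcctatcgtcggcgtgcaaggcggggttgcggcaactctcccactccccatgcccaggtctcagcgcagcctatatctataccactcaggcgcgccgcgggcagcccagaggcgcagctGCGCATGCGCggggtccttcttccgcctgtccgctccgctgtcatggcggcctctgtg
Mrps11, chr7:78782961-78783160, plus strand: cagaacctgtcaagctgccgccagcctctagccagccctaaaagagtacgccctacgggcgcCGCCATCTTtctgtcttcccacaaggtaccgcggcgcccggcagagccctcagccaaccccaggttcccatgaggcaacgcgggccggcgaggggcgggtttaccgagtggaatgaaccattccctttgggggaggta
In Mrpl58 the ETS letters stand at 17 and again at 2 bases before the start, and in Mrpl33 at 3 bases before it, beside a reverse NRF1 match at 12 bases before it. In Mrps18c they lie reversed at 156 bases before the start, and the Mrps5 window holds none of the letters searched.

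Library totals were 8894288 to 20424296 counts, with WT replicate 1 the deepest. Of the CLP markers, Flt3 was at 1511 to 1700 CPM (counts scaled to a common library total by TMM, the level used below) and Dntt, the enzyme that adds bases at antigen receptor joins, at 4885 to 5374 CPM. Il7r, the gene of CD127, was at 421 to 465 CPM in SF1 and 331 to 371 CPM in WT. Of all 8 CLP markers, 3 were higher in SF1 (Il7r, Ly6a and Ly6d), 2 were lower (Kit and Rag1) and 3 did not pass the test. Markers of other cells moved with the genotype. Of 9 neutrophil markers 8 were higher in SF1, and their summed level was 2019 to 5325 CPM in SF1 and 902 to 1138 CPM in WT. Of 7 erythroid markers 5 were lower, with summed levels of 5.17 to 9.10 CPM in SF1 and 48.9 to 71.6 CPM in WT, and Hba-a2 was at 0 in every SF1 library. Of 10 markers of lineages gated out, 7 were tested, and of these 2 were higher and 2 lower. The summed level of all 10 was 214 to 259 CPM in SF1 and 331 to 376 CPM in WT. Cd3e, a CD3 subunit of the T cell receptor complex, was at 0 in every SF1 library. In bulk RNA, fewer cells of a type and less RNA per cell cannot be told apart. The part of these cells in the results on MRP genes was not tested.

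MRP transcripts were present at similar levels in both genotypes. Of 78 genes, 77 passed the low-count filter. Of these, 3 were higher and 1 was lower in SF1 by edgeR's quasi-likelihood test at an adjusted p under 0.05, that is 5.19% of those tested, against 16.5% of all 14423 genes tested (977 or 6.77% higher and 1405 or 9.74% lower). With upper-quartile scaling the split was 1293 higher and 1106 lower over all genes, and 5 higher and 0 lower among MRP genes. At an unadjusted p under 0.05 there were 7 MRP genes, and 31.4% of all genes. The 3 SF1 and 2 WT values did not overlap for 24 MRP genes, 31.2% of the 77 tested, against 49% of all genes. Of these 24 MRP genes, 18 were higher and 6 lower in SF1. Over all genes tested, 24.8% were separated and higher and 24.2% separated and lower.

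The estimated differences were small, and few passed the threshold. The test recovered 18.4% of simulated log2 changes of 0.5, so few calls do not show that few MRP genes changed. The median log2 fold change of SF1 over WT was 0.05 over MRP genes and 0.02 over all genes tested, and the MRP values ran from -0.37 to 0.39 with an SD of 0.13, against an SD of 0.65 over all genes. For 69 of the 77 genes (89.6%) the change was smaller than 0.2 on the log2 scale in either direction, as it was for 43.1% of all genes. The 95% interval of the change lay within 0.5 of 0 on the log2 scale for 69 MRP genes, 89.6%, and for 36.5% of all genes. The 8 with wider intervals were the 4 that passed the test and Mrpl14, Mrpl52, Mrps21 and Mrps36. The median standard error (SE) was 0.11 for MRP genes and 0.15 for all genes, and their median levels were 58.9 and 29.4 CPM. The median coefficient of variation between the 3 SF1 libraries was 5.23% for MRP genes and 10.3% for all genes.

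**Figure D1:**
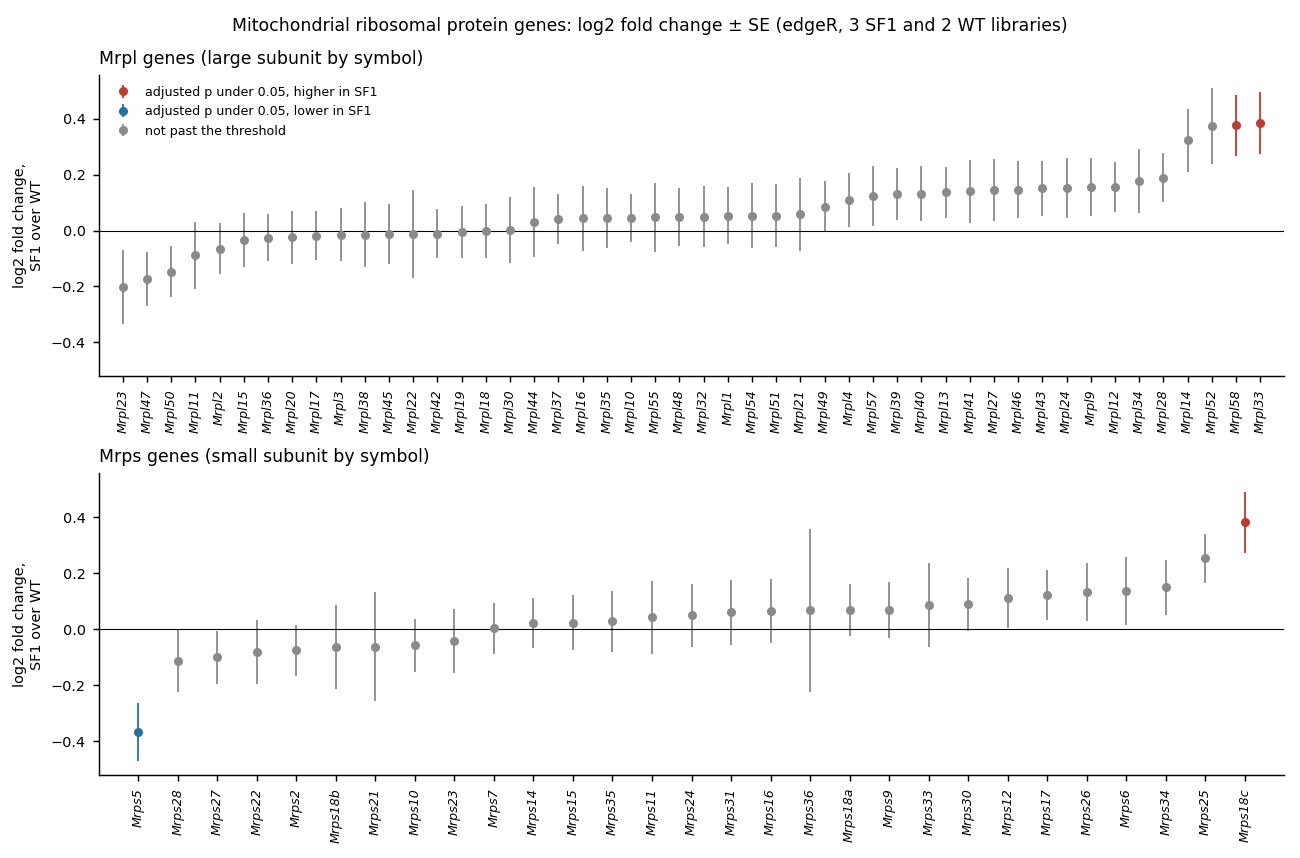
Log2 fold change of SF1 over WT (vertical axis) for each of the 77 tested MRP genes, Mrpl genes above and Mrps genes below, sorted by value; points are edgeR estimates and bars are 1 SE. Most points lie near 0, between -0.37 for Mrps5 and 0.39 for Mrpl33, and the 4 coloured genes passed an adjusted p of 0.05.

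Mrps5 was the MRP gene that fell. It encodes a small-subunit protein with a bacterial counterpart at the entry of the mRNA channel, and lies at chr2:127587222-127606829. Its level was 51.8, 49.7 and 51.1 CPM in SF1 replicates 1 to 3, and 70.0 and 60.9 CPM in WT replicates 1 and 2. Every SF1 library was below both WT libraries, and the WT libraries differed from each other more than the SF1 libraries did. The log2 fold change came to -0.37 (SE 0.10, adjusted p = 0.0430). It stayed past the threshold in 6 of 16 alternative analyses.

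Mrps18c rose. It is 1 of 3 mammalian paralogs of bacterial protein S18, the one that fills the S18 position of the small subunit, and lies at chr5:100798627-100804471. Its level was 45.3, 41.4 and 45.4 CPM in SF1 and 34.0 and 33.5 CPM in WT. On the log2 scale SF1 exceeded WT by 0.38 (SE 0.11, adjusted p = 0.0432). Its paralogs did not pass the test: Mrps18a, whose protein sits in the large subunit, was at 73.9, 79.0 and 75.4 CPM in SF1 and 70.3 and 75.0 CPM in WT. Mrps18b was at 25.1, 27.4 and 23.99 CPM in SF1 and 23.3 and 30.5 CPM in WT. Both paralogs overlapped between the groups. Mrps18c made up 31.4, 28.0 and 31.4% of the summed counts of the 3 paralogs in SF1 and 26.7 and 24.1% in WT. A gene model still awaiting experimental evidence, Gm43511, covers 23.2% of the Mrps18c exon bases, and reads of the pair cannot be told apart where they overlap. The Mrps18c call held in 6 of 16 alternatives.

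Mrpl33, the gene of a small large-subunit protein with a bacterial counterpart, rose as well. It was at 95.5, 96.1 and 111 CPM in SF1 and 71.0 and 84.0 CPM in WT, a difference of 0.39 on the log2 scale (SE 0.11, adjusted p = 0.0461). The lowest SF1 library lay above the highest WT library, and WT replicate 2 lay closer to SF1 than WT replicate 1 did. Its gene model, chr5:31596935-31664384, holds 7326 exon bases over all isoforms and a principal transcript of 478 bases. The call held in 6 of 16 alternatives, and its largest adjusted p among them was 0.762, its smallest 0.0122.

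Mrpl58 (also called ICT1, at chr11:115403752-115412674) is a peptidyl-tRNA hydrolase built into the large subunit that frees peptides from stalled ribosomes. It rose from 32.6 and 32.5 CPM in WT to 42.9, 39.8 and 44.0 CPM in SF1, that is by 0.38 on the log2 scale (SE 0.11, adjusted p = 0.0470). Both WT libraries were nearly equal, and all SF1 libraries were above them. The call held in 5 of 16 alternatives.

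These 4 calls lay close to the threshold. None of them remained when any SF1 replicate or WT replicate 1 was left out, and Mrps5 and Mrpl33 remained without WT replicate 2. The genes just outside, named after their values were seen, were Mrps25 (0.25, adjusted p = 0.0822), Mrpl14 (0.32, adjusted p = 0.0850) and Mrpl52 (0.37, adjusted p = 0.0957), all log2 fold changes. Of the 69 MRP genes with a matched promoter, 26 (37.7%) hold the ETS letters, against 20.4% of genes tested. Among the 26 are the 3 that rose, and the one that fell is not. A link between these letters and the change was not tested, and 4 genes are too few to show one. The 25 tested MRP genes with these letters had a median log2 fold change of 0.06 and the 43 without them 0.04.

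**Figure D2:**
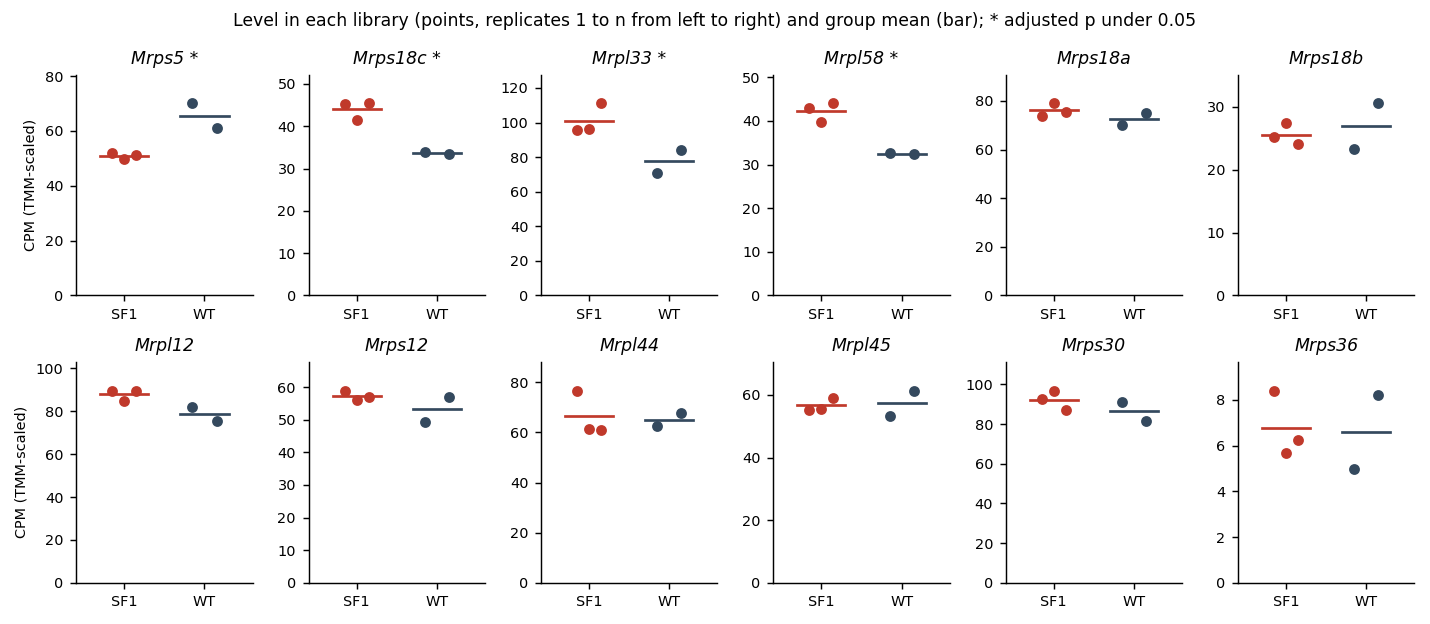
Level in CPM (vertical axis, from 0) of 12 MRP genes in each of the 3 SF1 and 2 WT libraries; points are libraries and the bar is the group mean. In the 4 panels with an asterisk, Mrps5, Mrps18c, Mrpl33 and Mrpl58, all points of a group lie apart from the other, while the S18 paralogs Mrps18a and Mrps18b overlap.

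Without correction for length or GC, the large and the small subunit had similar counts of called genes and nearly equal medians. Of 48 tested Mrpl genes 2 were higher and 0 lower, with a median log2 fold change of 0.05. Of 29 Mrps genes 1 was higher and 1 lower, also with a median of 0.05. The shares of genes whose groups did not overlap differed more. They were 37.5% of Mrpl genes (15 higher, 3 lower) and 20.7% of Mrps genes (3 higher, 3 lower). Over all genes tested that share was 49%, with 24.8% higher and 24.2% lower. Mrps18a and Mrps30 carry small-subunit names while their proteins sit in the large subunit, and placing them there gave medians of 0.05 over 50 and 0.04 over 27 genes. The log2 ratio of summed large to summed small levels was 0.97, 0.95 and 0.97 in SF1 and 0.93 and 0.94 in WT. All 3 SF1 ratios were thus above both WT ratios. For scale, the median over members varied between libraries of the same group with an SD of 0.04 on the log2 scale, and the large-minus-small difference of medians with an SD of 0.02.

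None of the 3 regions of the large subunit listed below held a gene past the threshold in edgeR. Over all tested MRP genes 5.19% passed, so with 3 to 6 genes a region this says little about the regions. In them 1 gene, Mrpl52 in the central protuberance, had an unadjusted p under 0.05. The factor-binding stalk, where elongation factors dock, is formed by Mrpl10, Mrpl11 and Mrpl12 and had a median log2 fold change of 0.04. Mrpl12, which also binds the mitochondrial RNA polymerase, was at 89.4, 84.6 and 89.6 CPM in SF1 and 81.8 and 75.5 CPM in WT (0.16, SE 0.09, adjusted p = 0.269), separated but not past the threshold. The 6 genes of the peptide exit tunnel had a median of -0.01. Among them Mrpl44 and Mrpl45, the latter a membrane contact of the ribosome, had log2 fold changes of 0.03 (SE 0.12) and -0.01 (SE 0.11). The 6 genes of the central protuberance, the contact between subunits, had a median of 0.09. Mrps30, a large-subunit protein with a small-subunit name, had 0.09 (SE 0.09), and Mrps12, part of the decoding centre of the small subunit, 0.11 (SE 0.11). The 45 tested proteins with a bacterial counterpart (2 higher, 1 lower, median 0.04) and the 32 assigned to mitochondria only (1 higher, 0 lower, median 0.06) had similar medians; the assignment counts Mrps18a and Mrps18b with the latter.

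Levels differed far more between MRP genes than between genotypes. Per kb of exon, the highest were Mrpl34 at 112 CPM per kb over the 5 libraries, Mrpl28 at 93.1 and Mrpl18 at 90.2, all large-subunit proteins with bacterial counterparts. Mrpl34 lay between 92.9 and 121 CPM per kb in single libraries, so its range touches those of Mrpl28 (83.9 to 105) and Mrpl18 (83.1 to 97.7) and their order is not settled. The lowest were Mrps36 at 5.26, Mrpl23 at 5.70 and Mrps35 at 6.45 CPM per kb, and the median was 22.2. Mrps36 is counted here by its small-subunit name, and its protein is an adaptor subunit of the oxoglutarate dehydrogenase complex. Mrps36 had 65 to 99 counts per library, the fewest of the tested MRP genes. Its levels were 8.40, 5.69 and 6.25 CPM in SF1 and 4.98 and 8.20 CPM in WT. The exon length is the union over isoforms, and the order depends on it. Per kb of the principal transcript, Mrpl33 was first at 192 CPM per kb (rank 61 by union length) and Mrpl42 second at 171. Mrpl28, Mrpl34 and Mrpl18 then followed at 120, 112 and 103 CPM per kb, Mrpl23 moved to rank 40, and Mrps36 stayed the lowest of the tested genes. By subunit symbol, the medians were 25.5 CPM per kb for large and 17.3 for small.

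WT replicate 1 stood apart for these genes. Summed over all members, levels were 4940, 4838 and 4888 CPM in SF1, 4867 CPM in WT replicate 2 and 4564 CPM in WT replicate 1. WT replicate 2 thus lay among the SF1 libraries. WT replicate 1 was the lowest library for 41 of 77 MRP genes (53.2%), against 24.1% of all genes tested, and WT replicate 2 exceeded it for 61 (79.2%), against 47.2%. Without WT replicate 1 the median log2 fold change was -0.01 and 0 genes passed in edgeR (2 at an unadjusted p under 0.05). Without WT replicate 2 it was 0.11 and 2 genes passed. The sign of the median therefore rests on WT replicate 1, whose depth was 20424296 counts against 8894288 in WT replicate 2. With all libraries thinned to the smallest total the median was 0.04.

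**Figure D3:**
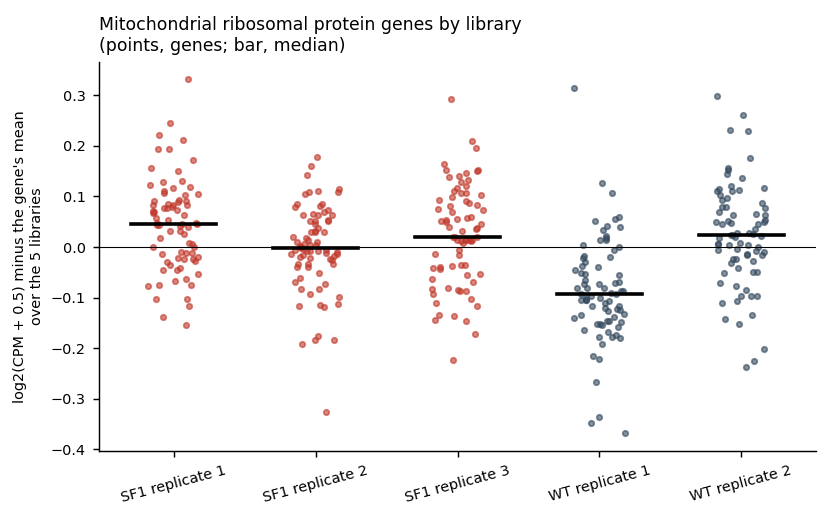
Deviation of each tested MRP gene from its own mean over the 5 libraries, on the log2(CPM + 0.5) scale (vertical axis), by library; points are genes and bars are medians. The median of WT replicate 1 is -0.09, and those of the other libraries lie between -0.003 and 0.04.

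MRP transcripts are short, and log2 fold changes over all genes followed transcript length. The median principal transcript was 1316 bases for MRP genes and 2724 for all genes tested. Across all genes, the median change was 0.14 at 1000 to under 1500 bases and -0.10 at 4000 bases or more. The MRP genes in the same bins had medians of 0.05 (22 genes) and 0.03 (9 genes), a smaller step between these bins than over all genes. Spearman's rho of the change with length was -0.21 across 14403 genes and -0.18 across the 77 MRP genes, as a description over genes that share the same 5 libraries. Removing the length trend of each library moved the MRP median to -0.03, and removing GC content and length together moved it to -0.02. The correction for length alone left rho near 0 across all genes but turned it to 0.41 across MRP genes, and with GC and length removed it was 0.17 there. The corrected MRP medians therefore carry a length trend of opposite sign. With GC and length removed, 2 genes passed, Mrpl50 (lower) and Mrps25 (higher), and none of the 4 above. Mrpl33 went from 0.39 to 0.14 and Mrps18c from 0.38 to 0.13 on the log2 scale, while Mrpl58 (0.33) and Mrps5 (-0.31) kept most of their size. With length alone removed, Mrpl33 was at 0.24 and Mrps18c at 0.23. The Mrps25 call also held with length alone, together with Mrpl58, but 69.8% of the Mrps25 exon bases are shared with Nr2c2 on the opposite strand, and this library kit does not mark the strand. After these corrections the large-subunit median exceeded the small-subunit median by 0.07 (length) and 0.09 (GC and length), against -0.0015 without correction.

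**Figure D4:**
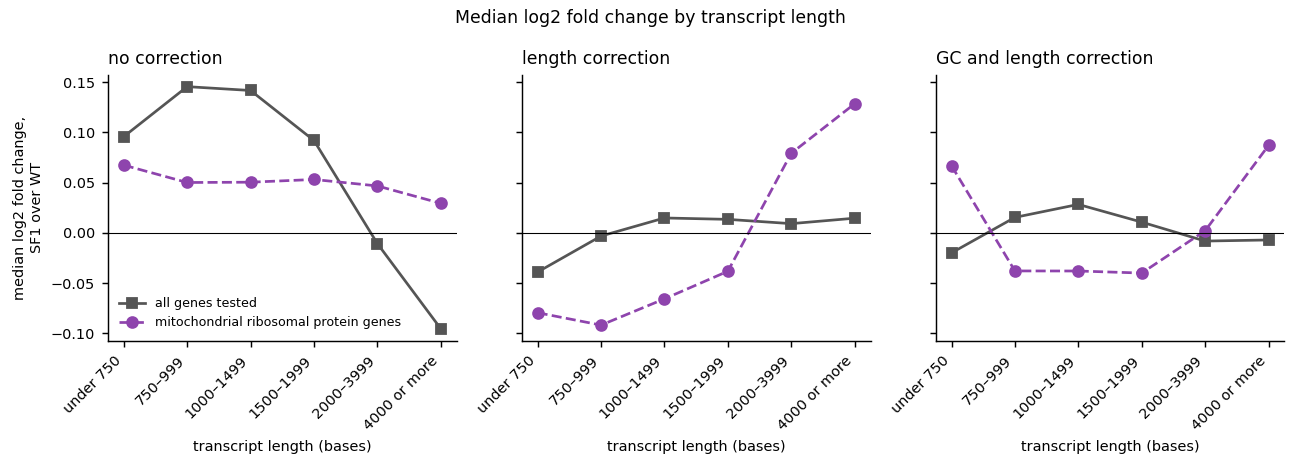
Median log2 fold change of SF1 over WT (vertical axis) by principal transcript length in bases (horizontal axis), for all genes tested (squares) and MRP genes (circles), without correction and with the 2 corrections. Without correction the all-gene line falls from 0.15 at its peak to -0.10 at the longest transcripts, while the MRP line stays between 0.03 and 0.07, with 6 to 22 MRP genes a bin.

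Among 9 regulators of nuclear genes for mitochondria, 4 were lower in SF1 and 0 higher, that is 44.4%, where 9.74% of all genes tested were lower. The list was chosen with earlier results of these data known, so this share is a description only. Its median principal transcript was 3656 bases, against 2724 for all genes tested. Of all genes at 4000 bases or more, 23.4% passed in either direction, against 16.5% over all lengths. Their median log2 fold change was -0.31, and the values ran from -1.05 to 0.73, with 7 below 0 and 2 above. Pprc1, a coactivator of NRF1, was at 105, 84.2 and 99.1 CPM in SF1 and 211 and 187 CPM in WT (-1.05, SE 0.11, adjusted p = 0.000650). Myc was at 558, 369 and 387 CPM in SF1 and 786 and 820 CPM in WT (-0.87, SE 0.16, adjusted p = 0.00663). Both groups were fully apart for each gene, and both calls held in all 16 alternatives. Ppargc1b, a related coactivator (-1.02), and Gabpa (-0.32) were lower too, with calls lost in 4 and 8 alternatives. Nrf1 (-0.21, adjusted p = 0.0937) and Yy1 (0.24, adjusted p = 0.212) did not pass in edgeR without correction. Nrf1 passed as lower with length correction alone and with GC and length correction.

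Other genes around the ribosome differed from list to list. These lists were also chosen with earlier results of these data known. Of 17 mitochondrial aminoacyl-tRNA synthetases, which charge tRNAs for the ribosome, 4 or 23.5% were lower and 0 higher (median -0.13): Yars2 (-0.82), Aars2 (-0.72), Vars2 (-0.44) and Mars2 (-0.44). The Yars2 call held in all alternatives, and Aars2 was lost in 1, Vars2 in 8 and Mars2 in 10. Of 10 genes of mitochondrial DNA transcription and maintenance, Polg, the DNA polymerase (-0.83), and Polrmt, the RNA polymerase (-0.79), were lower in all alternatives. Ssbp1, the single-strand DNA binding protein, was higher (0.35), a call lost in 7. The next 2 lists held a smaller share of lower genes than the 9.74% found over all genes. Of 19 translation factors and mRNA partners 1 (5.26%) was lower, Lrpprc (-0.72), which stabilises mitochondrial mRNAs, again in all alternatives. Of 26 assembly and rRNA modification factors, Noa1 (-0.52) and Rcc1l (-0.49), 7.69%, were lower and 0 higher, and neither passed without WT replicate 1. Of 5 ribosomal proteins with other symbols, Ptcd3 was lower (-0.27, adjusted p = 0.0482, lost in 9) and Dap3, Chchd1, Aurkaip1 and Gadd45gip1 did not pass.

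Few genes passed among mitochondrially encoded genes, nuclear subunits of the respiratory chain and proteins of the cytosolic ribosome. The mitochondrially encoded list holds ribosomal RNA (mt-Rnr2) as well as products of the ribosome. Of 15 mitochondrially encoded genes 12 were tested and 0 passed (edgeR, 1 at an unadjusted p under 0.05; 0 to 2 higher and 0 lower over the alternatives), with a median log2 fold change of 0.16. That median was -0.04 without WT replicate 1, 0.40 without WT replicate 2 and -0.16 with GC and length correction, so its sign is not settled. WT replicate 1 was the lowest library for 11 of the 12, and counts of these genes are uncertain because near-identical copies lie in the nuclear genome. The 74 cytosolic ribosomal protein genes tested had a median log2 fold change of 0.06. Of the nuclear subunits of the respiratory chain, 0 of 36 in complex I, 0 of 4 in complex II, 0 of 9 in complex III and 0 of 17 in complex V passed, with medians of 0.09, 0.05, 0.07 and -0.04, each of which changed sign in at least 1 alternative, as did the median of the cytosolic list. In these 4 lists, 3, 1, 3 and 1 genes had an unadjusted p under 0.05, and over the other analyses, DESeq2 and limma voom included, at most 2 genes of a list were higher and 1 lower. In complex IV 1 of 13 passed: Cox6a2, the isoform typical of heart and muscle, was at 190, 189 and 225 CPM in SF1 and 92.4 and 116 CPM in WT (0.96, SE 0.12, adjusted p = 0.00163), in all alternatives.

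**Figure D5:**
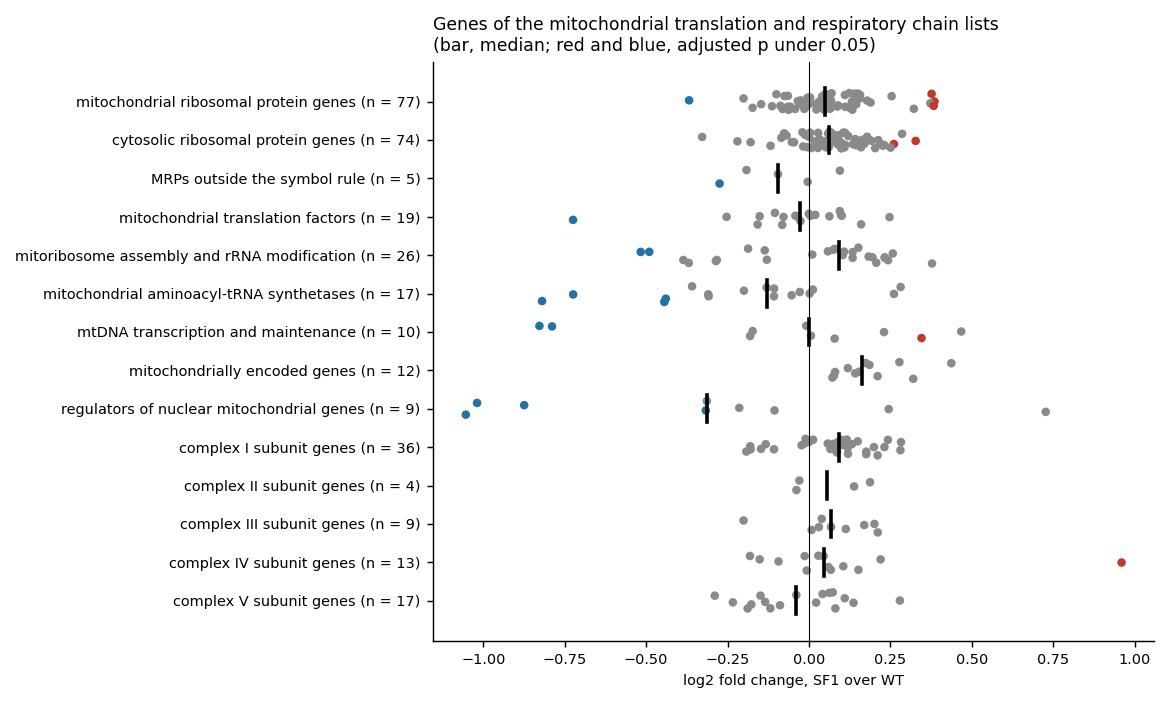
Log2 fold change of SF1 over WT (horizontal axis) for every tested gene of the MRP list and the related lists (1 row each); points are genes, coloured where the adjusted p was under 0.05, and bars are medians. MRP and cytosolic ribosomal protein genes cluster near 0 with medians of 0.05 and 0.06, while regulators have a median of -0.31.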

How the data were processed

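The authors deposited raw counts per gene, not normalized. The submitters' processing notes name HISAT2 2.2.1, featureCounts 2.0.1, FastQC and the GRCm38 build. The sources used here do not state the annotation release, the strandedness or how multi-mapping reads were counted. Per the labels' protocols, RNA with a RIN above 7 was amplified with SMART-Seq (version 2 or 4, which library is not stated) and Nextera XT, with no molecular identifiers, so PCR copies count as reads.

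Of 55487 identifiers, 55227 matched GENCODE M21, which gave symbols and lengths. Genes passing filterByExpr (minimum count 10) were tested on the counts with edgeR 4.0.16 (R 4.3.3; TMM, quasi-likelihood F test, Benjamini-Hochberg adjustment over 14423 genes, threshold 0.05). Log2 fold changes are SF1 over WT. The SE comes from the F statistic and 95% intervals from the t distribution with the fit's degrees of freedom. The biological coefficient of variation was 0.122. No pair of libraries was a repeat: chi-square per degree of freedom was 6.38 to 8.81 within groups. The test was checked on simulated counts in which all genes varied alike between libraries. It recovered 18.4% of 49 log2 changes of 0.5 and 90% of 50 changes of 1. Every tested MRP gene had a change smaller than 0.5, so few calls do not show that few MRP genes changed.

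The 16 alternatives were RLE and upper-quartile scaling, DESeq2 1.42.0, limma voom 3.58.1, no filter, a mean of at least 5 CPM, a replicate block, per-library spline offsets (4 degrees of freedom) for length or for GC and length, the block with GC and length, thinning to the smallest total (seed 11), and leaving out each library. Members and lists were chosen with earlier results of these data known. MRP genes were named if called, if among the 3 highest or lowest per kb, if left out by the filter, or for a known role (Mrpl12, Mrpl44, Mrpl45, Mrpl58, Mrps12, Mrps18a, Mrps18b, Mrps18c, Mrps30, Mrps36); up to 3 genes of other lists were named by smallest p. Others were named after their values were seen. The calls among cytosolic ribosomal protein genes are not reported here. No deposited column was left without a sample.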

Additional observations from a re-analysis of the deposited data

How the results depend on the processing

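The count of MRP genes past the threshold, 4 in all libraries, was 2 with GC and length correction, RLE scaling, length correction alone, no low-count filter and thinning, and 0 to 2 when each library was left out in turn. The median log2 fold change, 0.05, was -0.0175 with GC and length correction, -0.0295 with length correction alone, 0.11 with upper-quartile scaling and -0.0068 to 0.11 over the analyses without each library. The large-minus-small difference of medians, -0.0015, was 0.0869 with GC and length correction, 0.065 with length correction alone and -0.0041 to 0.0199 over the analyses without each library. The cause of these shifts was not tested. The tested MRP genes named by the rules above were compared with their alternatives. Of these comparisons, 231 kept their side of the threshold and 41 lost it in the same direction. All losses were in the 4 called genes, in 11 of 16 alternatives for Mrpl58 and 10 of 16 each for Mrps5, Mrps18c and Mrpl33. The other genes named by these rules had no call to lose and gained none. Genes named after their values were seen are not in these counts. Of them, Mrps25 passed in 3 alternatives and Mrpl14 and Mrpl50 in 1 each. No called gene changed direction. On the coding strand alone the motif shares of MRP windows were 20% (ETS), 6.67% (NRF1), 4% (NRF1 palindrome) and 8% (YY1). Calls over all genes, 2382, numbered 986 without WT replicate 1, 1234 without SF1 replicate 2, 1294 without SF1 replicate 3 and 1519 with the replicate block. With 1 WT library left, that library is assumed to vary like the SF1 group.

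Replicate numbers are shared by the groups, but nothing shows that they pair the samples: same-numbered libraries correlated at 0.036 and 0.065 in their deviations from the group means, over 2 pairs. With the replicate number as a block, 0 MRP genes passed in edgeR (6 at an unadjusted p under 0.05), and 0 with the block together with GC and length correction (8 at an unadjusted p under 0.05). The median was -0.0174 and the large-minus-small difference 0.0737 with the block and the correction. The smallest MRP adjusted p under the block alone was 0.116.

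Depth limits single genes: the 77 MRP genes tested had 65 to 2309 counts per library, and Mrps36, at the low end, had the widest interval of its change, -0.59 to 0.72 on the log2 scale.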

Other observations

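Mrpl53 was the MRP gene below the low-count filter, with 5, 6 and 5 counts in SF1 and 5 and 1 in WT. The protein-coding readthrough model Gm42688 covers 88.0% of its exon bases (695 of 790) and held 28, 27 and 23 counts in SF1 and 116 and 50 in WT, so a low Mrpl53 count does not show a low transcript level.

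Exons of 33 of the 78 MRP genes overlap another gene, among them Mrps34 (63.4% shared with Mapk8ip3) and Mrpl43 (33.4% shared with Twnk, the mitochondrial DNA helicase). The processed copies Mrps36-ps1, Mrps36-ps2, Mrps36-ps3 and Mrpl48-ps held 0 or 1 count in every library, and Mrpl23-ps1 held 11, 12 and 22 in SF1 and 26 and 9 in WT.

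By the starts of their promoter windows, Mrpl46 and Mrps11, a large-subunit and a small-subunit gene, begin 42 bases apart on opposite strands. These windows share 141 bases. In the gene models used for lengths, their exons share 173 bases, 12.2% of Mrpl46 and 7.97% of Mrps11. Reads in the shared exon bases cannot be told apart. Their log2 fold changes were 0.15 (SE 0.10) and 0.04 (SE 0.13), and neither passed the test.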
